A study of Mus musculus with 12 samples.

Results

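The genes described here are 10 controllers of lipid droplets and fatty acid use among the 45706 genes listed for BN1 cells. They were chosen by symbol for their textbook roles, with earlier results of these data known. They are Plin2 and Plin3, which coat droplets; Pnpla2, Hilpda and G0s2, which set lipolysis; Cd36 and Fabp5, which take up and carry fatty acids; Cpt1a, which admits them to mitochondria; and the receptors Ppara and Pparg. All 10 were found and all 10 were among the 18909 genes tested.

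BN1 is a murine hepatoblastoma line grown from a tumor driven by mutant forms of β-catenin and NRF2, in which exon 2 of Cdkn2a was targeted with Cas9, and every library carries that Cdkn2a KO genotype. The cells also carry EGFP under the endothelial Tie2/Tek promoter, as a pool of stable clones. UN cells were unsorted and kept in normoxia (21% oxygen). UH cells were unsorted and kept for 2 days in hypoxia (1% oxygen). SN cells were the brightest EGFP cells sorted after such an exposure and then expanded in normoxia, and SH cells came from SN cells put back in 1% oxygen for 2 days. Each group had 3 RNA libraries, and whether the sorted libraries trace to more than 1 sort is not given in the sources used here. The p-values therefore measure the spread between these libraries. All 12 libraries are labelled EGFP+, also those labelled unsorted.

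Cells store fatty acids as triglycerides and sterol esters inside lipid droplets, whose surface is covered by perilipins. Adipose triglyceride lipase, encoded by Pnpla2, starts their release, and both Hilpda and G0s2 encode small proteins that inhibit it. Released fatty acids can be bound by carriers such as FABP5, can be burned after CPT1A has linked them to carnitine, and can act as ligands of the PPAR receptors. Hypoxia is known to favor droplet storage over oxidation in many cell types, and Hilpda is a known target of the hypoxia-inducible factors.

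Hypoxia-inducible factors bind a short core, ACGTG or GCGTG. RefSeq promoter windows of 300 bases, from 250 before to 50 after the start site, were found for 9 of the 10 genes and not for Fabp5. At least 1 core on either strand was present in 6 of their 12 windows, those of Plin2, Hilpda, G0s2, Ppara and 1 of 3 of Pparg, against 43.8% of all 32851 mouse windows (19.6% with ACGTG and 32.4% with GCGTG). The stretches around the cores of the 3 droplet genes are shown because these genes separated the groups most differently: Hilpda by oxygen, G0s2 by sorting, and Plin2 in part by either. They are written 5′ to 3′ on the strand of the gene, with the core of either strand in capitals, from build GRCm38.p6.
Hilpda chr6:29272503-29272531: caaccgcgagccGCGTGctttccgtgact
Hilpda chr6:29272571-29272599: gatggccagcggACGTGccccagggcgag
Hilpda chr6:29272606-29272634: caggttcggtacGCGTGcgcagtctccga
Plin2 chr4:86670129-86670157: ggttggggttccCACGCcctcatccccaa
Plin2 chr4:86670046-86670075: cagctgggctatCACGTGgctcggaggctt
G0s2 chr1:193273314-193273342: cacacagcagggGCGTGcactactcgtgg
The 3 Hilpda cores began at position +28 of the upstream of its 2 start sites, and at -43 and -8 from the downstream one. Those of Plin2 began at -86 and -4, the latter an ACGTG on both strands at once, and that of G0s2 at -142. A match of these letters is a description of the window and not a measured binding site.

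Levels are given as TPM, the abundance of transcripts scaled to a fixed total per library and corrected for transcript length, so the levels of different genes in a library may be set side by side. Log2 fold changes are on the log2(TPM + 1) scale and understate the change of genes at low levels. The 2-fold limit applies to these log2 values, whereas a fold printed for a gene is the ratio of mean TPM. A gene is said to have risen or fallen where limma gave a Benjamini-Hochberg adjusted p under 0.05 over all genes tested and a change of more than 2-fold. With 3 libraries against 3, an exact permutation test cannot give a p below 0.1. UN is the reference of both UH and SN, and UH and SN in turn are compared with SH, so these comparisons share libraries. In bulk RNA, fewer cells of a type and less RNA per cell cannot be told apart.

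The libraries of one group correlated at 0.977 to 0.991 across genes on the log scale, and those of different groups at 0.903 to 0.960. The sum of 8 known hypoxia targets was used to check the oxygen labels. Vegfa, Car9, Egln3, Slc2a1, Pdk1, Ankrd37, Bnip3 and Ndrg1 together reached 279 to 371 TPM in UN and 298 to 435 TPM in SN, and 3728 to 4318 TPM in UH and 2973 to 3931 TPM in SH. Tek, whose promoter drives the reporter, was at most 0.226 TPM in unsorted and at least 2.07 TPM in sorted libraries. Cdkn2a was 196 to 327 TPM in UN, 66.4 to 78.7 TPM in UH, 10.4 to 16.5 TPM in SN and 7.37 to 9.32 TPM in SH, and a level per gene does not show whether exon 2 is edited. The sum of 11 fibroblast and stellate markers, of which Lrat was at 0 throughout, set UN replicate 1 apart, with 4315 TPM against 1152 and 1014 TPM in the other UN libraries, 4548 to 6807 TPM in UH, 166 to 187 TPM in SN and 47.3 to 76.7 TPM in SH. The 9 hepatocyte markers summed to 0.268 to 9.55 TPM, low levels for the tissue from which the tumor arose. In UH vs UN 1032 genes rose and 2222 fell as deposited, against 1564 and 1217 after median-of-ratios scaling, which moved the median of all genes from -0.19 to 0.00. In SH vs UH the split of 1447 and 1012 became 1021 and 1323, and the median moved from 0.17 to 0.03.

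**Figure D1:**
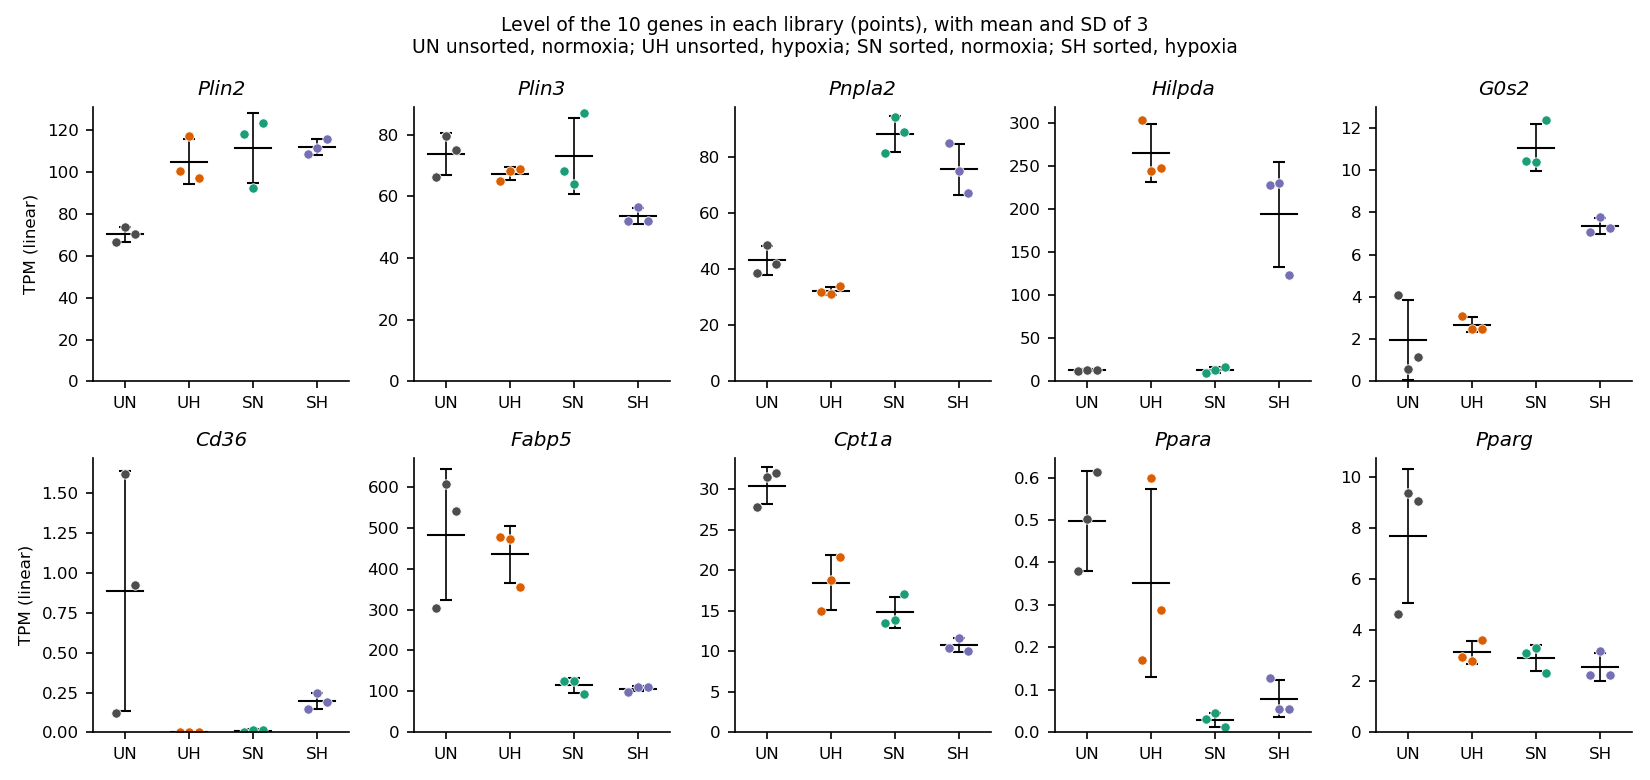
Level of each gene (vertical axes, TPM, linear and starting at 0) in each library (points) of the 4 groups on the horizontal axes, with the mean as a horizontal bar and the SD of 3 libraries as error bars. Hilpda is at 124 TPM or more in all 6 hypoxic libraries and at 16.7 TPM or less in all 6 normoxic ones, whereas Pnpla2, G0s2 and Fabp5 separate sorted from unsorted libraries.

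Lipolysis control gave the clearest pattern. Hilpda rose 20.5-fold with hypoxia in unsorted cells and 14.4-fold in sorted cells, from normoxic means of 13.0 and 13.5 TPM. Its partner inhibitor G0s2 and their target Pnpla2 instead differed between sorted and unsorted cells, and both were higher in sorted cells at either oxygen level.

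Hilpda, on chromosome 6 (29272488-29275446, + strand, GRCm38; ENSMUSG00000043421), had 11.9, 13.7 and 13.3 TPM in UN and 304, 244 and 248 TPM in UH. It had 10.2, 13.6 and 16.7 TPM in SN and 228, 231 and 124 TPM in SH. Every hypoxic library was above every normoxic one, and SH replicate 3 was the lowest of the hypoxic libraries.
The rise was 4.25 ± 0.23 (log2, SE; adjusted p = 1.03e-07, limma) in UH vs UN, a 20.5-fold ratio of mean TPM. It was 3.72 ± 0.23 (adjusted p = 5e-07) in SH vs SN, a ratio of 14.4. In normoxia SN and UN differed by 0.03 with a 95% interval of -0.47 to 0.53. In hypoxia the SH libraries lay below the UH libraries without overlap, by 0.50 (adjusted p = 0.103). With median-of-ratios scaling this was -0.72 (adjusted p = 0.0245), and without SH replicate 3 it was -0.20 and the difference of the responses -0.23. The difference of the responses, -0.52 ± 0.32, also missed the threshold (adjusted p = 0.267), and its interval ran from -1.23 to 0.19.

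Pnpla2, on chromosome 7 (141455198-141460743, + strand; ENSMUSG00000025509), had 38.8, 48.8 and 41.9 TPM in UN, 32.0, 31.1 and 33.9 TPM in UH, 81.4, 94.3 and 88.8 TPM in SN, and 84.9, 74.9 and 67.0 TPM in SH. All sorted libraries were above all unsorted ones. It was 2.04-fold higher in SN than in UN (log2 1.02 ± 0.11, adjusted p = 4.45e-05) and 2.34-fold higher in SH than in UH (1.20 ± 0.11, adjusted p = 9.11e-06). The first of these values is close to the 2-fold limit and was 0.95 without UN replicate 1 and 0.97 without SN replicate 2. The second became 0.98 after median-of-ratios scaling. With hypoxia the lipase was lower without overlap in unsorted cells, by a log2 change of -0.40 ± 0.11 (adjusted p = 0.0127), which is less than 2-fold. That value was -0.05 after median-of-ratios scaling and -0.08 after quantile normalization (adjusted p = 0.741 and 0.572), and its adjusted p was 0.0597 without UN replicate 2. In sorted cells the change was -0.22, with an interval of -0.47 to 0.03 and overlapping libraries.

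G0s2, on chromosome 1 (193272161-193273217, - strand; ENSMUSG00000009633), overlaps Lamb3 on the opposite strand, which averaged 3.98 TPM. It had 4.10, 0.60 and 1.15 TPM in UN, 3.09, 2.49 and 2.49 TPM in UH, 10.4, 10.4 and 12.4 TPM in SN, and 7.05, 7.78 and 7.26 TPM in SH. UN replicate 1 was again apart, but all sorted libraries were above all unsorted ones. G0s2 was 5.67-fold higher in SN than in UN (log2 2.21 ± 0.32, adjusted p = 0.000313) and 2.74-fold higher in SH than in UH (1.19 ± 0.32, adjusted p = 0.012). With hypoxia it gave 0.50 in unsorted and -0.52 in sorted cells (adjusted p = 0.234 and 0.225), and SH lay below SN without overlap. The unsorted value ranged from 0.15 without UN replicate 2 to 0.99 without UN replicate 1 (adjusted p = 0.732 and 0.000534), and the sorted one had an adjusted p of 0.0106 when SN and SH were fitted alone. The difference of these responses was -1.03 ± 0.46 (adjusted p = 0.13), and without UN replicate 1 it was -1.51, past the threshold.

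Within each library, the summed TPM of the 2 inhibitor genes was 0.351 ± 0.059 (SD, n = 3) times that of the lipase gene in UN, 8.32 ± 1.16 in UH, 0.278 ± 0.042 in SN and 2.64 ± 0.63 in SH. The libraries spanned 7.40 to 9.62 in UH and 1.96 to 3.19 in SH, so the ratio in hypoxia was lower in sorted cells without overlap. Hilpda supplied nearly all of it in hypoxia, with a ratio of 8.24 in UH and 2.54 in SH. G0s2 alone gave 0.083 ± 0.012 in UH, 0.126 ± 0.015 in SN and 0.098 ± 0.014 in SH. In UN the G0s2 ratio was 0.106 in replicate 1 and 0.012 and 0.027 in the others.

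**Figure D2:**
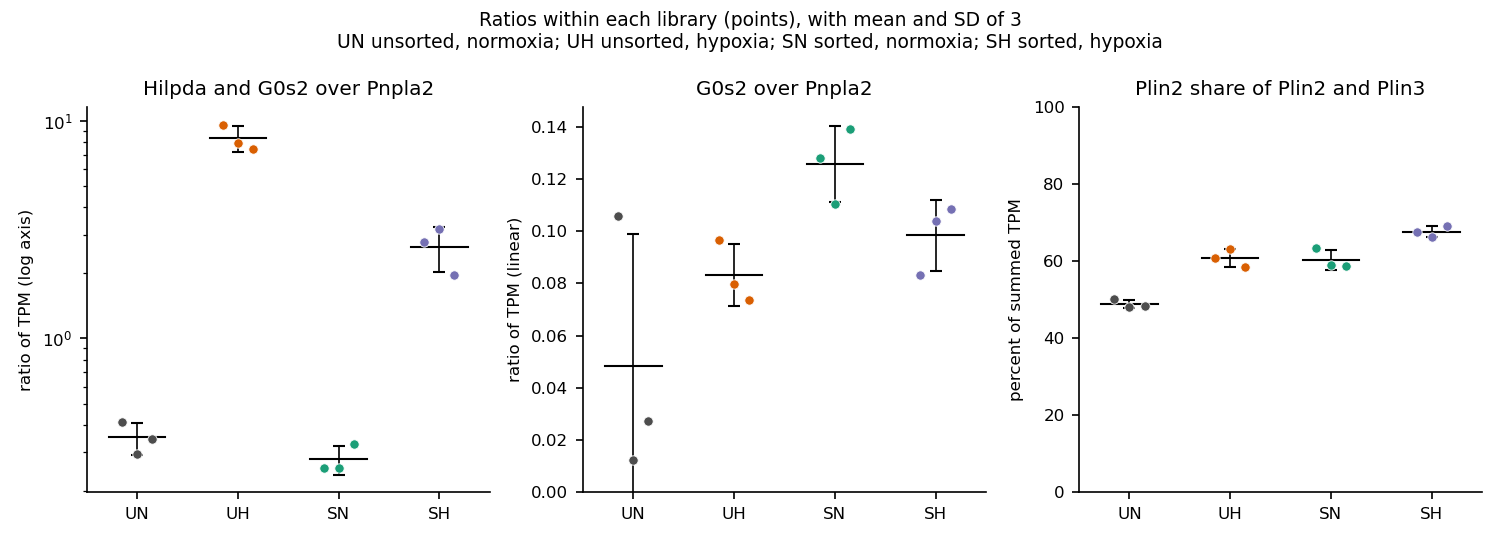
Ratios within each library (points) of the 4 groups, with the mean and SD of 3. Left, summed Hilpda and G0s2 over Pnpla2 (log axis); middle, G0s2 over Pnpla2 (linear); right, Plin2 as a percentage of summed Plin2 and Plin3. The left ratio is at least 1.96 in all hypoxic libraries and at most 0.413 in all normoxic ones, and the right one is lowest in UN and highest in SH.

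The droplet coat genes were among the well expressed ones. Plin2 was lowest in UN and averaged 105 to 112 TPM in the other groups, and Plin3 was lowest in SH. No change of either gene reached 2-fold, so neither is counted as risen or fallen.
Plin2, on chromosome 4 (86648386-86670060, - strand; ENSMUSG00000028494), had 66.6, 73.9 and 70.4 TPM in UN and 100.4, 117 and 97.3 TPM in UH. It had 118, 92.5 and 124 TPM in SN and 109, 111 and 116 TPM in SH. Only the UN libraries stood clear of the rest, and UH, SN and SH overlapped.
UH exceeded UN by 0.57 ± 0.12 (adjusted p = 0.00167) and SN exceeded UN by 0.65 ± 0.12 (adjusted p = 0.00116). SH and SN differed by 0.02 with an interval of -0.24 to 0.27. The response to hypoxia, sorted minus unsorted, differed by -0.55 ± 0.16 (adjusted p = 0.0327), again less than 2-fold. Median-of-ratios scaling moved this difference to -0.89 and UH vs UN to 0.92. The adjusted p of the difference stayed under 0.05 in 5 of 12 fits that each left out a library, reaching 0.0783 without UH replicate 2, and was 0.0561 with a replicate block.

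Plin3, on chromosome 17 (56277476-56292873, - strand; ENSMUSG00000024197), encodes a perilipin found in the cytosol and on young droplets. It ranged from 64.2 to 87.2 TPM over UN, UH and SN and from 52.0 to 56.6 TPM in SH, below every library of the other groups. SH vs SN gave -0.43 ± 0.12 (adjusted p = 0.0112) and SH vs UH -0.33 ± 0.12 (adjusted p = 0.0418). The latter is near the limit: it was -0.55 after median-of-ratios scaling, and its adjusted p was 0.0564 without a trend in the moderation. That adjusted p stayed under 0.05 in 4 of 12 fits that each left out a library, all 4 without a UN or SN library. It was above 0.05 without any one of the UH or SH libraries, with 0.107 without SH replicate 1. Plin2 accordingly made up 48.9% ± 1.1 (SD, n = 3) of summed Plin2 and Plin3 TPM in UN, 60.8% ± 2.4 in UH, 60.4% ± 2.6 in SN and 67.6% ± 1.4 in SH. UH and SN overlapped in this share, UN lay below and SH above all other libraries.

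Of the genes of fatty acid uptake and carriage, one was abundant and followed sorting, and the other was near the lower end of the scale. Fabp5 was 4.19-fold lower in sorted cells in normoxia and 4.07-fold lower in hypoxia. Cd36, a membrane receptor for long-chain fatty acids, was at most 1.62 TPM in every library.
Fabp5, on chromosome 3 (10012548-10016607, + strand; ENSMUSG00000027533), had 303, 606 and 541 TPM in UN, 478, 473 and 354 TPM in UH, 126, 125 and 94.5 TPM in SN, and 99.2, 111 and 110.3 TPM in SH. Sorted and unsorted libraries did not overlap, and UN replicate 1 was the lowest unsorted library. Fabp5 fell 4.19-fold in SN vs UN (log2 -2.01 ± 0.23, adjusted p = 4.85e-05) and 4.07-fold in SH vs UH (SE 0.23, adjusted p = 3.51e-05). Hypoxia gave -0.10 in unsorted cells (interval -0.60 to 0.39) and -0.10 in sorted cells (interval -0.59 to 0.40).

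The Fabp5 level is uncertain because of a near-identical copy. Gm6166 is annotated as a processed pseudogene, and 402 of 407 aligned bases of its 409-base transcript matched the coding Fabp5 transcript (98.8% identity). It averaged 609 TPM in UN, 567 TPM in UH, 147 TPM in SN and 120.4 TPM in SH, more than Fabp5 itself in each group, and its profile was the nearest to that of Fabp5 among 13567 genes. How reads were divided between them cannot be told from the table. Summed over both, the level was 4.17-fold lower in SN than in UN and 4.41-fold lower in SH than in UH. Another copy, Fabp5l2, did not exceed 0.142 TPM.

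Cd36, on chromosome 5 (17781690-17888801, - strand; ENSMUSG00000002944), had 0.12, 1.62 and 0.92 TPM in UN and was listed at 0 in all 3 UH libraries. It was at most 0.0173 TPM in SN and had 0.15, 0.25 and 0.19 TPM in SH. No fold is given against a group listed at 0. The mean of Cd36 over the 12 libraries, 0.273 TPM, passed the filter of 0.1 TPM through UN, which averaged 0.887 TPM. Comparisons of Cd36 in UN with other groups are therefore tied to that filter. UN and UH did not overlap (adjusted p = 0.00972), nor did UN and SN (adjusted p = 0.0152), and neither change exceeded 2-fold on the log2(TPM + 1) scale. Both adjusted p were above 0.05 when only the compared groups were fitted. The lowest UN library was replicate 1, which lay below all SH libraries, and both changes passed the threshold without it. The difference of the hypoxia responses passed the threshold but was lost without any one of the other 11 libraries.

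Cpt1a and the PPAR receptor genes were highest in UN. Mean Cpt1a was ordered UN, UH, SN and SH from high to low, Ppara was nearly absent from sorted cells, and Pparg was lower in the 3 other groups than in UN.
Cpt1a, on chromosome 19 (3322334-3385733, + strand; ENSMUSG00000024900), had 27.8, 31.5 and 31.9 TPM in UN, 15.0, 18.8 and 21.6 TPM in UH, 13.5, 13.9 and 17.0 TPM in SN, and 10.4, 11.7 and 10.03 TPM in SH. UH and SN overlapped, UN lay above both and SH below both. All 4 comparisons had an adjusted p under 0.05 and none exceeded 2-fold on the log2(TPM + 1) scale. They gave -0.70 ± 0.14 in UH vs UN (adjusted p = 0.00177), -0.43 in SH vs SN (0.0322), -0.72 in SH vs UH (0.00188) and -0.99 in SN vs UN (0.000287). Median-of-ratios scaling brought UH vs UN to -0.36, and the adjusted p of SH vs SN was between 0.053 and 0.12 without SN replicate 2 or 3 or SH replicate 1 or 3. The SN vs UN value is at the limit and passed it, at -1.05 and -1.09, without UN replicate 1 or without SN replicate 3. It also passed with a pseudocount of 0.1, at -1.04, and mean TPM was 2.05-fold lower in SN than in UN.

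Pparg, on chromosome 6 (115360951-115490399, + strand; ENSMUSG00000000440), encodes the receptor best known for adipocyte differentiation. It had 4.66, 9.37 and 9.06 TPM in UN, 2.97, 2.80 and 3.63 TPM in UH, 3.12, 3.32 and 2.34 TPM in SN, and 2.24, 3.19 and 2.26 TPM in SH. UN did not overlap any other group, and the other 3 overlapped one another.
Pparg fell 2.45-fold in UH vs UN (log2 -1.03 ± 0.23, adjusted p = 0.00334) and 2.63-fold in SN vs UN (-1.10 ± 0.23, adjusted p = 0.00337). Both values are near the 2-fold limit: median-of-ratios scaling gave -0.73 and -0.99. Without UN replicate 2 they were -0.87 and -0.95 and without UN replicate 3 they were -0.89 and -0.97. The first was also -0.999 or -0.967 without UH replicate 1 or 2, just short of the limit, and the second -0.99 without SN replicate 3. In sorted cells hypoxia gave -0.14 with an interval of -0.65 to 0.37, and the difference of the responses was 0.88 ± 0.33 (adjusted p = 0.0754), or 1.17 and past the threshold without UN replicate 1.

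Ppara, on chromosome 15 (85734983-85802819, + strand; ENSMUSG00000022383), encodes the receptor that drives fatty acid oxidation genes in liver. It had 0.38, 0.50 and 0.61 TPM in UN, 0.17, 0.60 and 0.29 TPM in UH, 0.0313, 0.0454 and 0.0128 TPM in SN, and 0.129, 0.0551 and 0.0549 TPM in SH. All unsorted libraries were above all sorted ones. The mean of Ppara over the 12 libraries, 0.240 TPM, passed the filter of 0.1 TPM through the unsorted libraries. On the log2(TPM + 1) scale SN vs UN was -0.54 ± 0.12 (adjusted p = 0.00428), although the mean TPM differed 16.7-fold, and SH vs UH was -0.31 (adjusted p = 0.0513). These levels are low enough that the pseudocount sets the fold, and with a pseudocount of 0.1 both passed the threshold at -2.19 and -1.24.

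**Figure D3:**
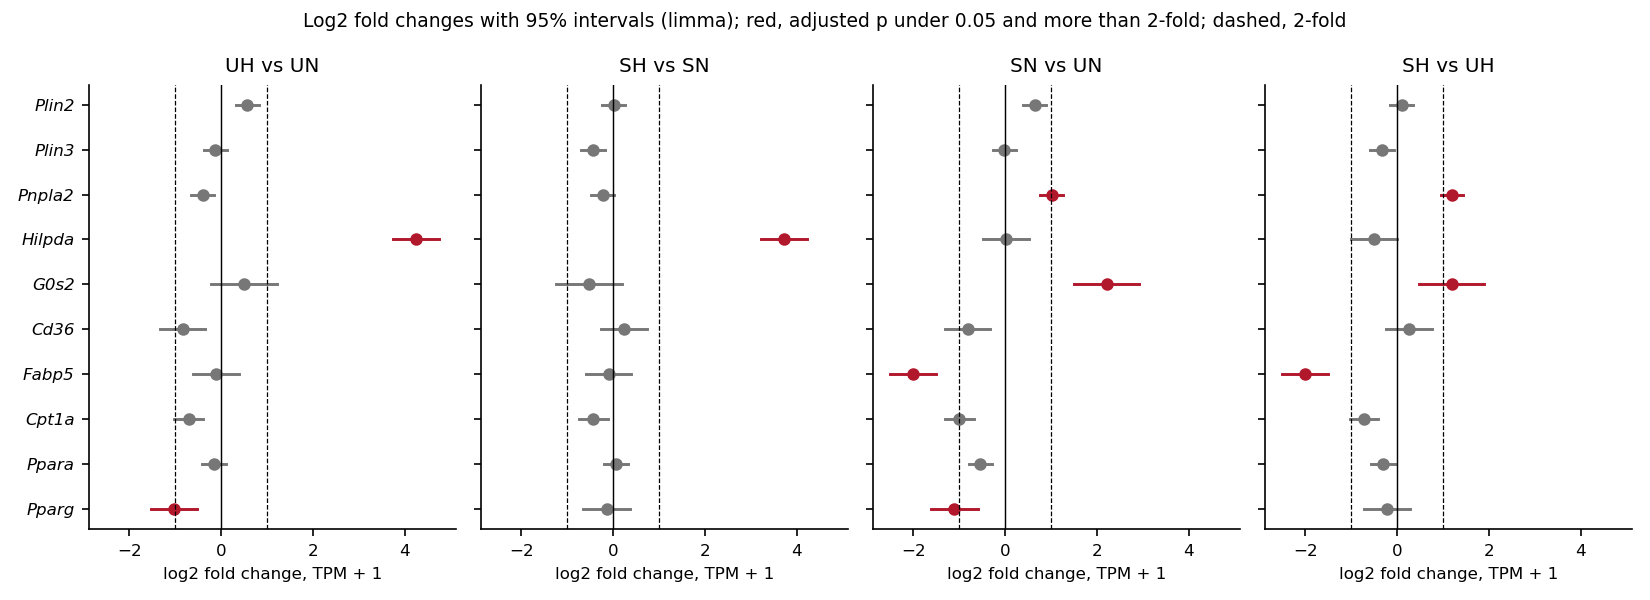
Log2 fold change (horizontal axes, log2(TPM + 1) scale) of each gene in the 4 comparisons, with 95% intervals from limma. Red marks an adjusted p under 0.05 with a change of more than 2-fold, and dashed lines mark 2-fold. Hilpda lies farthest out in both hypoxia comparisons, at 4.25 and 3.72, while Pnpla2, G0s2 and Fabp5 are red in both comparisons of sorted with unsorted cells.

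Counted over the 10 genes, 1 rose (Hilpda) and 1 fell (Pparg) in UH vs UN, where 17.2% of all genes tested passed the same thresholds (5.46% higher and 11.8% lower). In SH vs SN 1 rose (Hilpda) and none fell, against 12.5% of all genes (7.47% higher and 5.0% lower). In SN vs UN 2 rose (G0s2 and Pnpla2) and 2 fell (Fabp5 and Pparg), against 10.8% of all genes (3.2% higher and 7.57% lower). In SH vs UH 2 rose (G0s2 and Pnpla2) and 1 fell (Fabp5), against 13.0% of all genes (7.65% higher and 5.35% lower). In the difference of the hypoxia responses, sorted minus unsorted, 1 passed (Cd36, higher), against 10.3% of all genes (8.08% higher and 2.18% lower). The share of the 10 genes in both hypoxia comparisons is thus near that of all genes.
The median log2 fold change of the 10 genes was -0.14 in UH vs UN, -0.12 in SH vs SN, -0.27 in SH vs UH and -0.28 in SN vs UN, beside -0.19, 0.03, 0.17 and -0.06 over all genes tested. At an adjusted p under 0.05 with no limit on fold, 6 of the 10 genes passed in UH vs UN (2 higher and 4 lower), beside 46.4% of all genes (13.0% and 33.5%). The count was 3 in SH vs SN (1 and 2), beside 41.0% (21.5% and 19.5%), and 8 in SN vs UN (3 and 5), beside 33.9% (13.0% and 20.9%). It was 5 in SH vs UH (2 and 3), beside 41.7% (28.3% and 13.4%), and 2 in the difference of the responses (1 and 1), beside 22.0% (17.4% and 4.51%). Groups did not overlap for 6, 6, 8 and 8 of the 10 genes, beside 51.1%, 56.8%, 49.0% and 51.7% of all genes.

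For the 5 genes that rose or fell in a pairwise comparison, the genes with the most similar profile were sought by the root mean square difference of centred log2 levels over the 12 libraries. Those of Hilpda were Bsg, Bnip3 and Pfkp, at 0.25 to 0.29 beside an SD of 2.02 of Hilpda itself. Bnip3, a mitophagy receptor, averaged 52.9 TPM in UN, 862 TPM in UH, 57.6 TPM in SN and 913 TPM in SH. Those of G0s2 were Akr1c13, Gypc and Styk1 (0.23 to 0.24, SD 0.96), those of Pnpla2 were Spns2, Arl4c and Zfand4 (0.12 to 0.16, SD 0.59), and those of Pparg were Tspan3, Spin1 and Efna4 (0.13 to 0.14, SD 0.55). Spns2, a sphingosine-1-phosphate exporter, averaged 115 TPM in UN, 98.9 TPM in UH, 230 TPM in SN and 199 TPM in SH. After Gm6166, those of Fabp5 were Scn8a and Prrg3 at 0.24, beside an SD of 1.04. Scn8a averaged 4.86 TPM in UN and 0.104 TPM in SN, and Prrg3 3.04 and 0.0165 TPM. Their ratios of mean TPM were thus much larger than that of Fabp5, and the log2(TPM + 1) scale compresses such low levels.

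Around the 10 genes, 7 lists of 109 further genes of lipid storage, release, uptake and oxidation were counted, and 93 of them could be tested. With hypoxia, 11 rose and 12 fell in unsorted cells (24.7% of those tested), and 12 rose and 8 fell in sorted cells (21.5%). SN vs UN gave 3 that rose and 9 that fell, and SH vs UH gave 5 and 7 (12.9% each), or 1 and 12 after median-of-ratios scaling. Over all genes tested the shares were 17.2%, 12.5%, 10.8% and 13.0% in that order, and no test was made of these differences.

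Genes of triglyceride and sterol ester synthesis that passed the test in the hypoxia comparisons were higher. Of 13 such genes tested, 5 rose and none fell in UH vs UN (Lpin3, Dgat2, Lpin1, Soat2 and Soat1), with a list median of 0.43 beside -0.19 for all genes. In SH vs SN 4 rose (Soat2, Dgat2, Lpin1 and Lpin3) and none fell, with a median of 0.24 beside 0.03. Of all genes tested, 5.46% rose and 11.8% fell in UH vs UN, and 7.47% rose and 5.0% fell in SH vs SN.
Dgat2, which adds the last acyl chain of a triglyceride, had 3.84, 5.77 and 4.63 TPM in UN and 23.5, 25.4 and 27.3 TPM in UH (log2 2.21 ± 0.17, adjusted p = 1.18e-06). It averaged 6.71 TPM in SN and 26.6 TPM in SH (1.83 ± 0.17, adjusted p = 8.14e-06). Lpin3, a phosphatidate phosphatase, averaged 1.84 TPM in UN and 15.1 TPM in UH (2.50 ± 0.17, adjusted p = 7.05e-07) and was 4.07-fold lower in SH than in UH (adjusted p = 1.18e-05). Soat2, a sterol acyltransferase, averaged 0.286 TPM in SN and 5.56 TPM in SH (2.34 ± 0.18, adjusted p = 2.46e-06).

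Among 8 tested genes of droplet coat and growth, Plin4 fell in UH vs UN and in SN vs UN (adjusted p = 0.029 and 0.0453). It had 0.405, 4.57 and 4.93 TPM in UN, 0.281 to 0.669 TPM in UH and 0.363 to 0.872 TPM in SN, so UN replicate 1 lay within both other groups. The first of these calls was lost without UN replicate 2 or 3 or UH replicate 1 or 2. Bscl2, encoding the droplet assembly protein seipin, rose from 6.23 TPM in SN to 16.3 TPM in SH (1.27 ± 0.17, adjusted p = 0.00012). The adipocyte perilipin Plin1 did not exceed 0.125 TPM, and Plin5 did not exceed 0.113 TPM.

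Of 10 tested genes of lipolysis and lipophagy, 1 rose and 2 fell in UH vs UN and 1 rose and 3 fell in SH vs SN. Of all genes tested, 5.46% rose and 11.8% fell in UH vs UN, near these counts, and 7.47% rose and 5.0% fell in SH vs SN. Mgll, the lipase of the last step of triglyceride breakdown, rose in both, from 0.415 to 3.76 TPM (1.73 ± 0.16, adjusted p = 4.82e-06) and from 0.166 to 1.47 TPM (1.08 ± 0.16, adjusted p = 0.000217). Lipa, the lysosomal acid lipase, had 146, 454 and 457 TPM in UN and 78.4 to 104 TPM in UH (-1.77 ± 0.34, adjusted p = 0.00118), and it averaged 47.2 TPM in SN (-2.71 vs UN, adjusted p = 0.000112). UN replicate 1 was the lowest UN library for Lipa. The carboxylesterase Ces1g fell in both hypoxia comparisons, by 2.78 and 1.63 on the log2 scale. Ces1d was higher in SN than in UN (1.38) and fell by 1.79 in SH vs SN, and close paralogs of this family may share reads.

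Of 16 tested genes of uptake, binding and activation, Vldlr changed most. This receptor for triglyceride-rich lipoproteins had 10.2, 18.0 and 18.1 TPM in UN and 191, 230.1 and 276 TPM in UH (3.86 ± 0.19, adjusted p = 6.26e-08), and averaged 11.2 TPM in SN and 119 TPM in SH (3.29 ± 0.19, adjusted p = 3.85e-07). The fatty acid transporter Slc27a4 rose from 27.1 to 62.0 TPM in UH vs UN (1.17 ± 0.12, adjusted p = 1.36e-05). Dbi, the acyl-CoA binding protein, fell in both hypoxia comparisons, from 474 to 180 TPM (-1.38 ± 0.14) and from 383 to 113 TPM (-1.75 ± 0.14). The acyl-CoA synthetase genes Acsl3, Acsl4 and Acsl5 fell in SH vs SN, Acsl5 from 124 to 52.6 TPM (adjusted p = 1.86e-05). Fabp4 followed Fabp5 in direction and was 12.02-fold lower in SN than in UN (-2.91 ± 0.35, adjusted p = 8.24e-05) and 11.7-fold lower in SH than in UH (-2.89 ± 0.35, adjusted p = 6.16e-05).

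Oxidation genes that passed the test in the first hypoxia were lower. Of 21 tested genes of mitochondrial fatty acid oxidation, none rose and 5 fell in UH vs UN (Etfa, Etfb, Eci1, Acadl and Echs1), with a median of -0.76 beside -0.19 for all genes. Of all genes tested, 5.46% rose and 11.8% fell there. After median-of-ratios scaling 2 of the 21 genes fell and after quantile normalization 3. Without UN replicate 1, 8 fell and 1 rose. In SH vs SN 1 rose (Cpt1c) and 1 fell (Acadl), beside 7.47% and 5.0% of all genes, with a median of 0.07 beside 0.03.
Etfa, a subunit of the flavoprotein that takes electrons from acyl-CoA dehydrogenases, had 148, 261 and 256 TPM in UN and 74.7 to 84.0 TPM in UH (-1.44 ± 0.18, adjusted p = 5.41e-05). Acadl, the long-chain dehydrogenase, fell from 113 to 46.5 TPM in SH vs SN (-1.26 ± 0.13, adjusted p = 2.55e-05). Cpt1c, a relative of Cpt1a best known from neurons, went the other way from Cpt1a, with 13.2, 3.59 and 3.48 TPM in UN and averages of 16.7 TPM in SN (1.41 ± 0.34, adjusted p = 0.00751) and 43.2 TPM in SH (1.32 vs SN, adjusted p = 0.00873). Of 11 tested genes of peroxisomal oxidation, none passed in UH vs UN (2 fell without UN replicate 1 and 1 without UH replicate 3), Acox3 rose in SH vs SN (1.14 ± 0.15), Acox2 fell by 1.51 in SN vs UN, and Scp2 fell by 1.10 in SH vs UH. Over all genes tested, 17.2% passed in UH vs UN.

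Of 14 tested partners and targets of the PPAR receptors, 3 rose and 3 fell in UH vs UN, and 3 rose and none fell in SH vs SN (1 fell without SN replicate 1 or 2 or SH replicate 1). Of all genes tested, 5.46% rose and 11.8% fell in UH vs UN, and 7.47% rose and 5.0% fell in SH vs SN. Angptl4, a secreted inhibitor of lipoprotein lipase that hypoxia also induces, had 17.1, 12.5 and 13.2 TPM in UN and 80.2, 94.2 and 85.2 TPM in UH (2.53 ± 0.17, adjusted p = 5.5e-07). It rose from 1.22 to 17.9 TPM in SH vs SN (3.08 ± 0.17, adjusted p = 2.76e-07) and was 11.7-fold lower in SN than in UN. Rxra, the partner receptor, fell from 67.4 to 20.5 TPM in UH vs UN (-1.66 ± 0.20, adjusted p = 3.67e-05). Ppargc1a, a coactivator of oxidation genes, averaged 3.68 TPM in UN and 10.1 TPM in SN (1.23 ± 0.31, adjusted p = 0.01). Acot1, an acyl-CoA thioesterase with close paralogs, averaged 11.9 TPM in UN and was listed at 0 in all SN libraries.

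**Figure D4:**
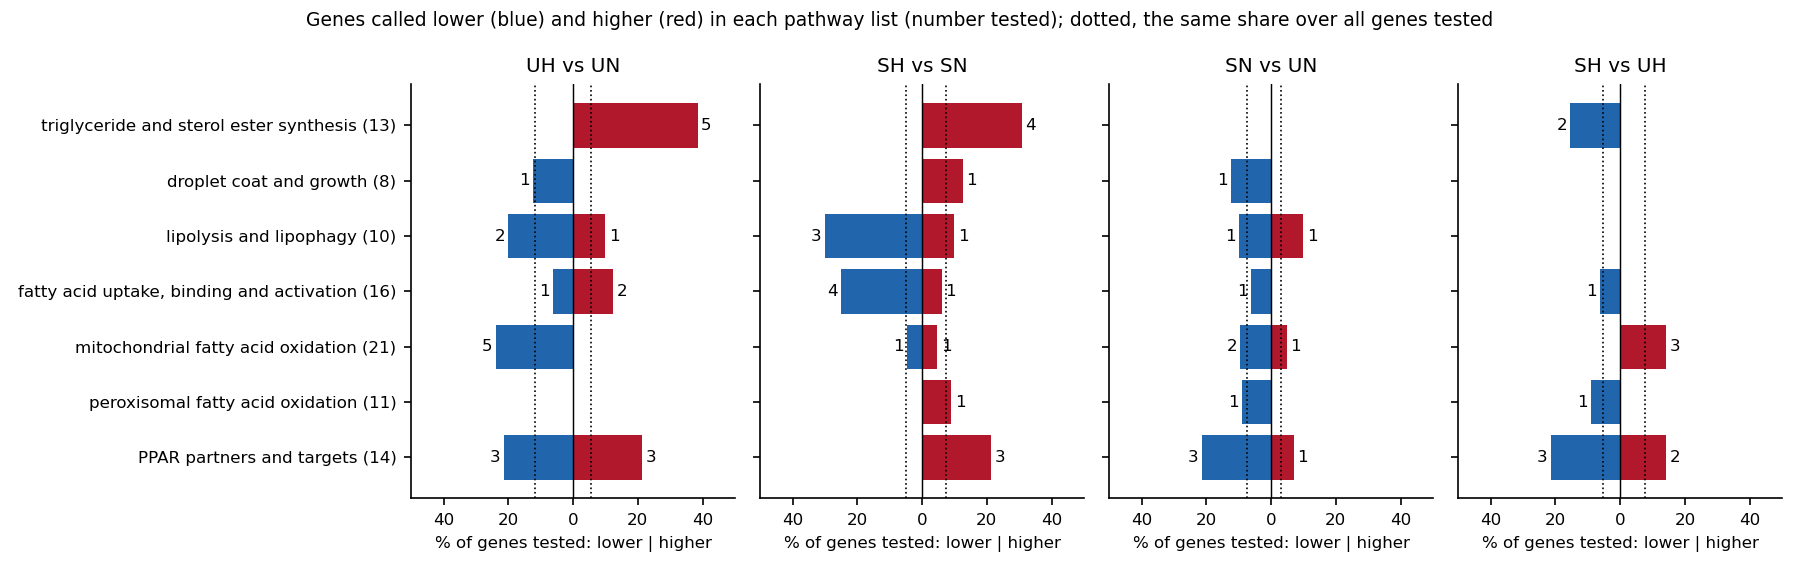
Share of the tested genes of each pathway list (numbers tested in brackets) that fell (blue, to the left) or rose (red, to the right) in the 4 comparisons, in percent, with the number of genes at each bar. Dotted lines give the share of all genes tested, and synthesis genes are on the rising side only in both hypoxia comparisons, with 5 and 4 genes.

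**Figure D5:**
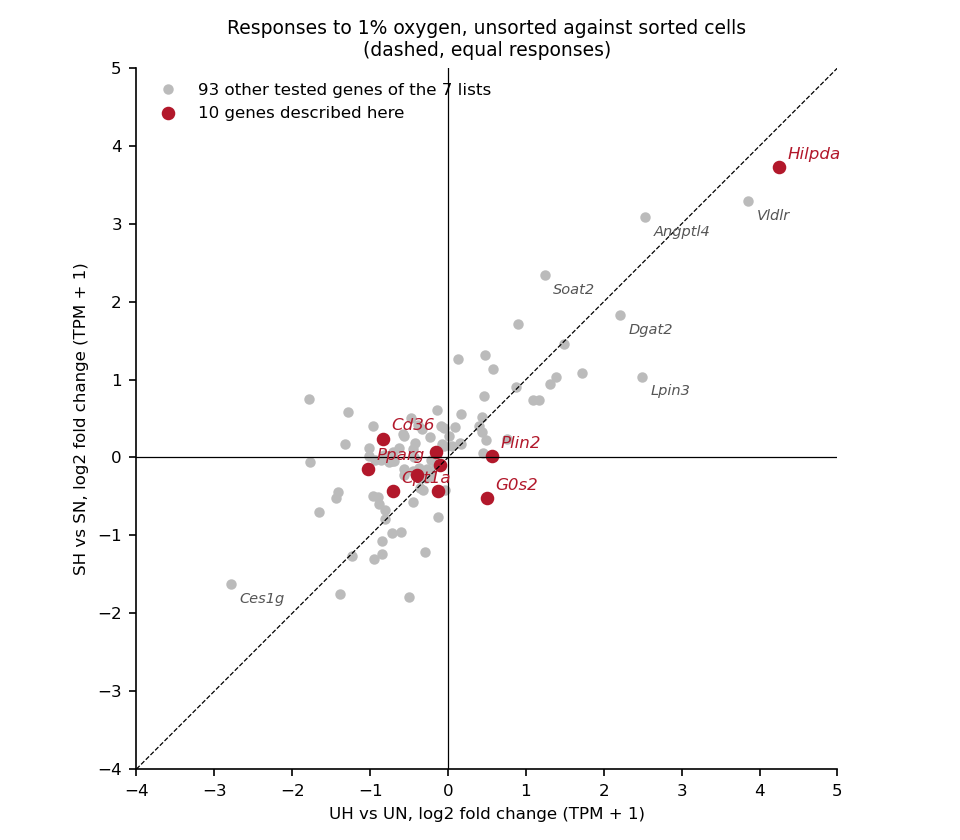
Log2 fold change in UH vs UN (horizontal) against that in SH vs SN (vertical), both on the log2(TPM + 1) scale, for the 10 genes (red) and the 93 other tested genes of the lists (grey), with a dashed line of equal responses. Hilpda, at 4.25 and 3.72, is the farthest point to the upper right, followed by Vldlr and Angptl4.

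Marker levels of other cell types moved with some of these results. Of 9 adipocyte markers, which include Fabp4, 3 averaged 0.1 TPM or more, and the sum was 13.8, 39.1 and 29.8 TPM in UN, 17.9 to 21.1 TPM in UH, 5.23 to 6.83 TPM in SN and 6.42 to 9.22 TPM in SH. This sum was lower in sorted cells as Fabp5 was, and Adipoq and Lep did not exceed 0.181 and 0.058 TPM. Most of the sum in unsorted cells was Fabp4, which averaged 22.5 TPM in UN and 16.5 TPM in UH, and 1.87 TPM in SN and 1.41 TPM in SH. Lipe averaged 4.46 TPM in UN and 3.89 TPM in SN, but 2.90 TPM in UH and 5.98 TPM in SH. The fibroblast and stellate sum given above was also lower in sorted cells, and UN replicate 1 had both the largest such sum and the lowest Pparg, Cd36 and Fabp5 of the UN libraries. The genes of that sum did not all move together. In UH vs UN Col1a1, Col3a1 and Col1a2 rose, whereas Pdgfra, Pdgfrb and Dcn fell. In SN vs UN Col3a1, Col1a2, Col1a1 and Pdgfra fell. In SH vs UH these and Pdgfrb fell, whereas Des rose. The part of these cells or programs in the results was not tested.
The macrophage sum, of 9 markers with Clec4f at 0 throughout, was 5.03 to 9.69 TPM in UN, 21.4 to 22.5 TPM in UH, 9.69 to 14.5 TPM in SN and 58.8 to 63.1 TPM in SH. Cd68 made up most of it in UH, SN and SH, while in UN replicate 1 Csf1r had 5.01 TPM and Cd68 2.78 TPM. The leukocyte marker Ptprc did not exceed 0.121 TPM. The 9 endothelial markers summed to 2.16 to 4.16 TPM in UN, 18.1 to 28.5 TPM in UH, 3.65 to 4.53 TPM in SN and 6.69 to 8.59 TPM in SH. In UH nearly all of the endothelial sum was Flt1, with 17.8, 23.1 and 28.0 TPM. Cdh5, a defining endothelial marker, did not exceed 0.097 TPM.
The share of TPM from mitochondrially encoded genes was 6.10% ± 1.27 (SD, n = 3) in UN, 2.11% ± 0.43 in UH, 8.10% ± 0.40 in SN and 3.43% ± 1.10 in SH. Rescaling without these genes left the calls of all 10 genes as they were.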

How the data were processed

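RNA was sequenced from 12 libraries in 4 groups of 3. The authors ran nf-core/rnaseq 3.12.0 with Salmon on build mm10, per the labels and the processing notes, and deposited a gene table of TPM. TPM holds no depth, so counting error is unknown. Counts were not used here, and the study's count test was replaced by limma 3.58.1 (R 4.3.3) on log2(TPM + 1) with 1 mean per group, moderation with a trend, and a filter at 0.1 TPM on the mean over libraries. The 10 genes and the lists were chosen with earlier results of these data known. Named list genes are the 2 largest changes per list, comparison and direction whose groups did not overlap; others were named after their values were seen. The fit was tested on simulated data. Coordinates are from GENCODE M21, to which 98.8% of identifiers matched. Promoters are from RefSeq (GRCm38.p6). Alternatives were other pseudocounts, filters, scalings, moderation, compared groups alone, a replicate block and each library left out. Those for the lists were added after seeing the data.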

Additional observations from a re-analysis of the deposited data

Results flagged for a closer look

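For 12 genes, the response to hypoxia differed between sorted and unsorted cells by the test of the difference itself (limma, adjusted p under 0.05 and over 2-fold). All values are log2(TPM + 1) responses, SH vs SN minus UH vs UN. They are the only genes of the 10 and of the 93 others that passed. Of the 93 others 11.8% passed, near the 10.3% of all genes tested. Over all genes 1527 differences passed on the higher side and 412 on the lower, with a median of 0.25. After median-of-ratios scaling these counts were 901 and 782, with a median of 0.02.

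Cd36 gave 1.07 ± 0.32 (adjusted p = 0.0332). It was listed at 0 in all UH libraries, so this value depends on the pseudocount. The call was kept in 1 of 12 fits that each left out a library, the one without UN replicate 1, where the value was 1.41. It was lost with no filter on low values and under both scalings, and a filter at a mean TPM of 1 removed the gene.

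Genes with a positive difference were Vnn1 (2.54), Plin4 (1.87), Lipa (1.72), Eci1 (1.495), Acox2 (1.37), Acot1 (1.14), Bscl2 (1.14), Soat2 (1.09) and Echs1 (1.04). Of these, only Bscl2 and Soat2 rose in SH vs SN, by 1.27 and 2.34, beside 0.12 and 1.24 in UH vs UN. The others were lower in UH vs UN. Vnn1 gave -1.79 there and 0.75 in SH vs SN, Plin4 -1.28 and 0.59, and Lipa -1.77 and -0.05. Eci1 gave -1.32 and 0.18, Acox2 -0.96 and 0.41, Acot1 -1.01 and 0.13, and Echs1 -1.02 and 0.02. Genes with a negative difference were Lpin3 (-1.46) and Ces1d (-1.29). Of these 11, Vnn1, Eci1, Acox2, Lpin3 and Ces1d passed in all 12 fits that each left out a library. Plin4 passed in 1, without UN replicate 1, Lipa in 4 and Echs1 in 8. Acot1 was lost without UN replicate 2, Bscl2 without UN replicate 1 and Soat2 without UN replicate 3. Median-of-ratios scaling and quantile normalization each lost Acot1, Bscl2, Soat2, Echs1 and Plin4, a pseudocount of 0.1 lost Ces1d, and with no filter on low values Plin4 was also lost. Acox2 averaged 2.18 TPM in UN and 0.0525 TPM in SN, and Acot1 was listed at 0 in SN, so neither had room to fall in SH vs SN. Ces1d averaged 0.549 TPM in UN and 3.11 TPM in SN, which left less room for a fall in unsorted cells on this scale.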

How the results depend on the processing

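Called means an adjusted p under 0.05 and over 2-fold. Over 1080 recomputed log2 fold changes of the 10 genes, 997 kept their direction and their side of the threshold, and of 1030 for the named list genes 1020 did and none changed sign. Many of these values could not differ from the main fold change: those with no fold threshold, no trend, a replicate block or the compared groups alone. The same holds where the library left out belonged to neither compared group. The named list genes were picked for large changes without overlap, so a change of sign was unlikely from the start. Hilpda, G0s2 and Fabp5 kept every call of a pairwise comparison. TPM gives no depth, so low genes such as Cd36 and Ppara have no counting interval, and their folds rest on the pseudocount.

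With no fold threshold, called genes of the 10 became 2 higher and 4 lower in UH vs UN, 2 lower in SH vs SN, 5 lower in SN vs UN, 3 lower in SH vs UH, with 1 lower in the difference. Those of the lists became 44 lower in UH vs UN, 21 up and 20 down in SH vs SN, 19 up and 39 down in SN vs UN, 21 up and 17 down in SH vs UH, with 27 up in the difference. With a pseudocount of 0.1, the 10 genes gave 2 lower in UH vs UN, 5 lower in SN vs UN and 2 lower in SH vs UH; the lists gave 21 down in UH vs UN, 5 up with 20 down in SN vs UN, 11 up in SH vs UH, and for the difference 15 up with 1 down. Median-of-ratios scaling gave 0 lower in UH vs UN and 1 lower in SN vs UN (Pparg lost), 1 higher in SH vs UH (Pnpla2 lost) and 0 higher in the difference (Cd36 lost); the lists gave 5 up in SN vs UN, 1 up with 12 down in SH vs UH, and for the difference 4 up. Quantile normalization gave 0 lower in UH vs UN, 1 lower in SN vs UN and 0 higher in the difference; the lists gave 5 up in SN vs UN, 3 up with 11 down in SH vs UH, and for the difference 4 up with 4 down. In the difference, Cd36 was also lost with no filter on low values (0 higher) and was not tested at a filter of 1 TPM (0 higher), where the lists gave 1 lower. The cause of these changes was not tested.

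Leaving out each library in turn gave, for the 10 genes, 0 to 2 lower in UH vs UN, 1 to 2 higher and 1 to 4 lower in SN vs UN, and 0 to 2 higher and 0 to 1 lower in the difference. For the lists it gave 10 to 12 up and 9 to 17 down in UH vs UN, 3 to 5 up with 8 to 11 down in SN vs UN, 4 to 6 up with 6 to 10 down in SH vs UH, and for the difference 5 to 16 up with 2 to 4 down. Counts without UN replicate 1 were the highest of these for genes lower in UH vs UN (17) and higher in the difference (16).

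Changes of sign concerned uncalled values. Median-of-ratios scaling gave 0.23 for Plin3 and 0.25 for Fabp5 in UH vs UN, 0.10 for Plin3 in SN vs UN, -0.12 for Plin2 in SH vs UH, and -0.16 for Pnpla2, -0.34 for Fabp5 and -0.057 for Cpt1a in the difference. Quantile normalization gave 0.12 for Plin3 in UH vs UN, 0.034 for Fabp5 and -0.055 for Ppara in SH vs SN, and -0.021 for Pnpla2 and -0.015 for Cpt1a in the difference. Without mitochondrially encoded genes, Plin2 gave -0.053 in SH vs SN, Plin3 0.013 in SN vs UN and Fabp5 -0.0035 in the difference. With a library left out, values ranged from -0.41 to 0.090 for Fabp5 in UH vs UN, from -0.11 to 0.10 for Plin2 in SH vs SN, from -0.15 to 0.070 for Plin3 and from -0.13 to 0.20 for Hilpda in SN vs UN, and from -0.19 to 0.31 for Fabp5 in the difference.

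Groups share replicate numbers, but the deviations of same-numbered libraries correlated at only -0.116 to 0.141, so the numbers were not taken as pairs. A replicate block left the counts for the 10 genes as they were, with 1 higher and 1 lower in UH vs UN, and in UH vs UN 1032 genes were higher and 2224 lower over all genes. Other alternatives (no trend, compared groups alone) left the counts for the 10 genes within 1.5 times.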
